A study of Mus musculus with 9 samples.

Results

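Expression of 9 complement genes was followed in RAW264.7 cells, a macrophage cell line derived from BALB/c mice that turns into osteoclast-like cells under the cytokine RANKL. The genes are the opsonin C3, the alternative pathway protease factor B (Cfb), the alternative pathway stabilizer properdin (Cfp), the 3 chains of C1q (C1qa, C1qb and C1qc), the C1 inhibitor (Serping1) and the receptors of the anaphylatoxins C3a and C5a (C3ar1 and C5ar1). They were chosen by their gene symbols, and each was found on 1 of the 23282 gene rows of the 9 libraries. The negative control was treated with RANKL alone at 50 ng/mL, the surface protein-treated cells additionally received surface proteins extracted from the dairy bacterium Propionibacterium freudenreichii MJ2 at 10 µg/mL, and the last group received heat-killed MJ2 at 10000000 cells/mL. Whether each library of this last group also had RANKL is not stated in its labels. All treatments lasted 4 days in cells at passage 30, and each group has 3 libraries. A single transformed line was used throughout, and nothing in the labels says that the libraries of a group came from separate cultures, so that p-values measure the spread between these libraries, which may be technical.

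Complement is a cascade of plasma and cell-surface proteins that tags particles for uptake and recruits leukocytes. The classical pathway starts when C1q binds antibody or a surface directly, whereas the alternative pathway amplifies itself through C3b, factor B and properdin, and both meet at the cleavage of C3. The fragments C3a and C5a act on G protein-coupled receptors of myeloid cells. Macrophages are a local source of C1q, properdin and C3, while much of the plasma pool of other components is made in the liver.

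The libraries hold reads from the 3′ end of mRNA, and the deposited values are on a log2 scale. Raising 2 to a value and subtracting 1 gives adjusted reads, a scale on which 1 sequenced read was worth between 0.924 and 1.11. Adjusted reads summed to between 5930926 and 6503682 per library, and 3 adjusted reads were taken as the floor, the level that a count of 0 in a library still allows by counting error alone. A gene was tested with limma when 3 or more of the 6 libraries compared held 10 or more adjusted reads of it. It was called when its fold change reached 2 and its adjusted p was under 0.05, and only called genes are said to have risen or fallen. For single genes p = 0.1 is the smallest value that the exact two-sided permutation test allows with groups of 3, and it was reached wherever the groups did not overlap.

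Macrophage and osteoclast markers were present, and both moved with the groups. Of 8 macrophage markers 7 could be tested in each comparison, of which 5 rose and 1 fell with surface proteins, and 4 rose and none fell with heat-killed MJ2. Over all genes tested 10.2% rose and 7.32% fell with surface proteins, and 3.37% rose and 0.897% fell with heat-killed MJ2. The summed level of the macrophage markers ran from 14727 to 16611 adjusted reads with RANKL alone, from 22131 to 22796 with heat-killed MJ2 and from 18009 to 19682 with surface proteins. Of 8 osteoclast markers 7 could be tested, of which 5 fell with surface proteins and 2 with heat-killed MJ2, and their sum went from between 17073 and 28379 adjusted reads with RANKL alone to between 12052 and 14038 and between 4958 and 7349, respectively. T cell, B cell and hepatocyte markers held no more than 3 adjusted reads of any gene, and of the 4 neutrophil markers in the files only S100a8 was above that level, while Mpo and Elane held no read. S100a8, named after its values were seen, held at most 0.110 adjusted reads with RANKL alone, 1899 to 2056 with heat-killed MJ2 and 113 to 209 with surface proteins. The part of these shifts in the values below was not tested, and in RNA from whole cultures more cells of a type cannot be told apart from more RNA per cell.

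The 2 anaphylatoxin receptors had the largest log2 fold changes of the members tested in all 3 comparisons. With surface proteins C3ar1, C5ar1 and C3 were called higher than with RANKL alone, where 17.5% of the 10874 genes tested were called, 10.2% higher and 7.32% lower. With heat-killed MJ2 C3ar1 and C5ar1 were called higher, where 4.26% of the 10814 genes tested were called, 3.37% higher and 0.897% lower. Surface proteins against heat-killed MJ2 gave higher C3ar1 and C3 and lower C5ar1, where 10.1% of the 10916 genes tested were called, 5.08% higher and 4.97% lower. The 2 comparisons against RANKL alone share their control libraries. Only C3, C3ar1, C5ar1 and Cfp passed the filter in any comparison, and C3 passed it against RANKL alone through the surface protein libraries only, so that these counts describe the members and are no test of the set. The median log2 fold change of all genes tested was -0.0077, -0.0042 and 0.031 in the 3 comparisons, and other scalings moved it by less than 0.1.

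C3ar1 (chromosome 6 of GRCm38, 122847138 to 122856161, minus strand), the receptor of C3a, rose in both treated groups and stood highest with surface proteins. Cells treated with RANKL alone held 87.1, 109 and 144 adjusted reads in replicates 1, 2 and 3. Heat-killed MJ2-treated cells held 768, 1117 and 829, and surface protein-treated cells held 2760.0, 3810.1 and 3326. The 3 groups were fully separated, each library of one group lying above every library of the group below it. Among all genes tested, such a separation was found for 24.7% with surface proteins above RANKL alone, 15.4% with heat-killed MJ2 above RANKL alone and 22.2% with surface proteins above heat-killed MJ2. The log2 value was 6.81 ± 0.36, 9.80 ± 0.29 and 11.68 ± 0.23 (SD, n = 3 each) in the same order. The log2 fold change of C3ar1 was 4.87 (standard error 0.23, adjusted p = 1.6e-04) with surface proteins and 3.00 (standard error 0.24, adjusted p = 0.0022) with heat-killed MJ2, both against RANKL alone. Surface protein-treated cells also exceeded heat-killed MJ2-treated cells, by 1.87 on the log2 scale (standard error 0.21, adjusted p = 0.0070). C3ar1 ranked 78 from the top among the 10874 genes tested with surface proteins and 144 among the 10814 tested with heat-killed MJ2. All 3 calls held when any single library was left out.

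C5ar1 (chromosome 7, 16246743 to 16259540, minus strand), the receptor of C5a, also rose in both treated groups, but it stood highest with heat-killed MJ2. It held 13.03, 26.0 and 1.96 adjusted reads with RANKL alone, 376, 298 and 288 with heat-killed MJ2, and 174, 95.9 and 116 with surface proteins. Again no group overlapped another (surface proteins lay fully below heat-killed MJ2 in 20.1% of the genes tested there), while the negative control was uneven, with replicate 3 at the level of 2 reads. The log2 values were 3.38 ± 1.64, 8.32 ± 0.21 and 6.98 ± 0.44 (SD, n = 3 each). The log2 fold change of C5ar1 was 4.94 (standard error 0.77, adjusted p = 0.022) with heat-killed MJ2, which ranked 29 from the top among the genes tested, and 3.60 (standard error 0.79, adjusted p = 0.019) with surface proteins. Between the treated groups it was -1.34 (standard error 0.25, adjusted p = 0.021), lower with surface proteins, and this call was lost without replicate 1 or 3 of heat-killed MJ2 or replicate 2 or 3 of surface proteins (adjusted p between 0.055 and 0.074). With replicate 3 of the negative control left out, the values against RANKL alone were 4.04 and 2.69 and both calls held. Leaving out any of the 3 libraries of heat-killed MJ2, or replicate 1 of the negative control, lost the call with heat-killed MJ2 (adjusted p between 0.051 and 0.089). Leaving out any of the 3 surface protein libraries lost the call with surface proteins (adjusted p between 0.050 and 0.052). Without a filter both calls against RANKL alone were also lost, as was that with heat-killed MJ2 when replicate number was a block. With all libraries of the 3 groups in a single limma fit, the call between the treated groups was lost (adjusted p = 0.20).

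The order of the 2 treatments therefore differed between the 2 receptors. The size of this is described by their ratio within each library, where a factor common to all genes cancels. A scaling that depends on the level of a gene would not cancel, and the exact scaling is not known. Per adjusted read of C5ar1 there were 15.8, 39.7 and 28.6 adjusted reads of C3ar1 in surface protein-treated cells and 2.04, 3.75 and 2.87 in heat-killed MJ2-treated cells. The difference between the deposited log2 values of the receptors was 4.70 ± 0.67 against 1.48 ± 0.44 (SD, n = 3 each). That these groups do not overlap follows from the separation of each receptor given above and is no further evidence. In the negative control the ratio was 6.69, 4.19 and 73.6, the last of these in the replicate with the lowest C5ar1. The reads come from the 3′ ends of transcripts, so that the ratio does not carry the lengths of the 2 transcripts.

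**Figure D1:**
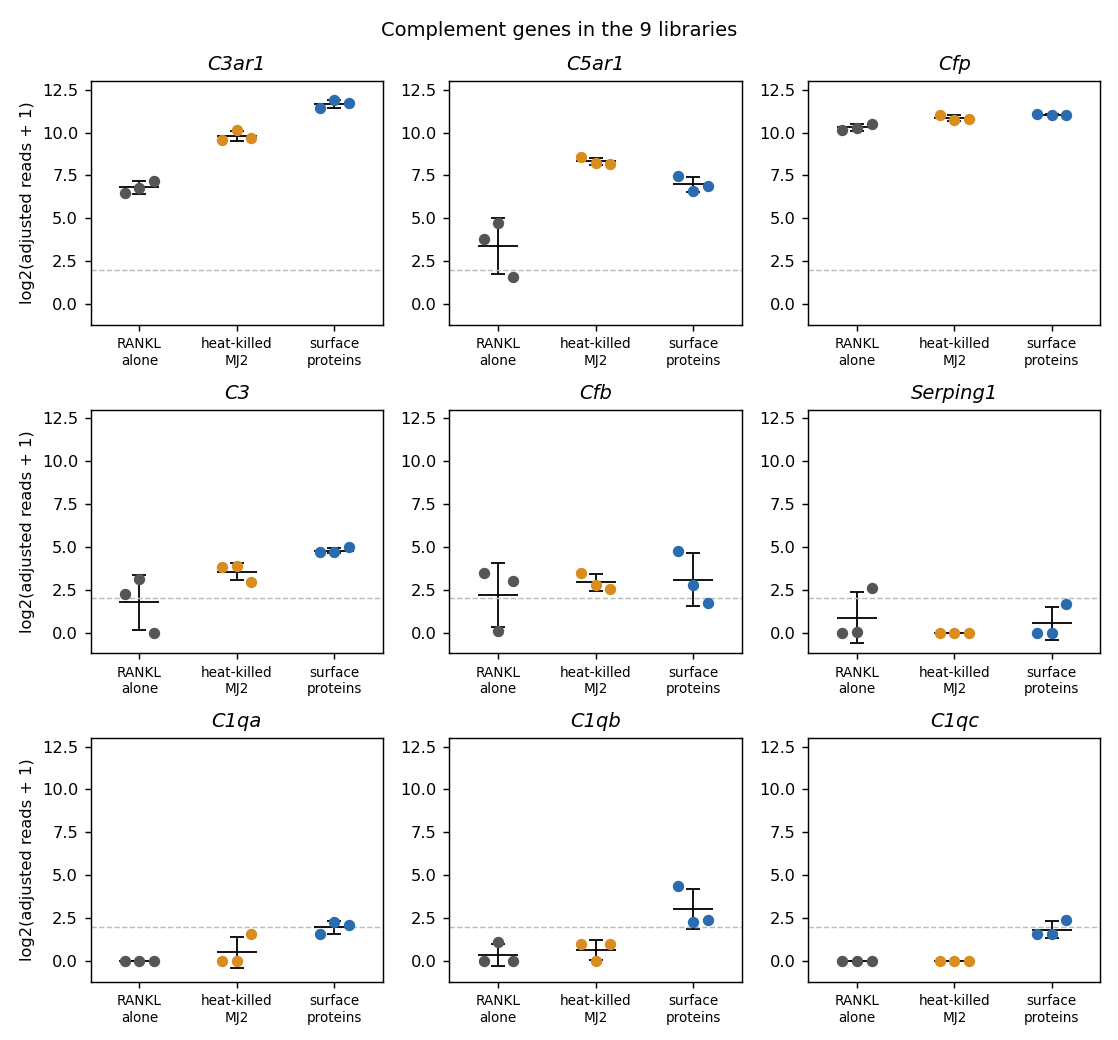
The y axis shows the deposited log2(adjusted reads + 1), the points are the 3 libraries of each group, the bars are the mean and SD, and the dashed line marks the floor of 3 adjusted reads. C3ar1 climbs from a mean of 6.81 to 9.80 and 11.68, C5ar1 is highest with heat-killed MJ2 at 8.32, Cfp lies between 10.29 and 11.05 in all groups, and C1qb is above the floor in all 3 surface protein libraries, C1qa in 2 and C1qc in 1.

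The 250 bases before the RefSeq start of the 4 members that could be tested are shown from GRCm38.p6, 5′ to 3′ on the strand of the gene, to give the sequence next to each start. The RefSeq start of C5ar1 lies inside the gene span given above from GENCODE, so that most of its window is within that span, while the C3ar1 window lies almost wholly before its gene, and the 2 windows are not matched upstream sequence. The letters searched, on both strands, were TTTC and TTTC with 2 bases of any kind between them (the interferon response element), TTCNNNGAA (the STAT element), the NF-κB motif, TGANTCA (AP-1), TTGCNNAA (C/EBP), GAGGAA (PU.1) and TATAAA. Matches are in capitals, and a match is no more than those letters.
C3ar1 (chr6:122856158-122856407, minus strand): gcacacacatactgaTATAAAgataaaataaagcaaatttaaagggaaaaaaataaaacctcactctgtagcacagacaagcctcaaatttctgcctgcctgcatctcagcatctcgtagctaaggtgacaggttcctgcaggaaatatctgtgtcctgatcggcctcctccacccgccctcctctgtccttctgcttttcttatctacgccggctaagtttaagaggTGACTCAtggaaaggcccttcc
C5ar1 (chr7:16259339-16259588, minus strand): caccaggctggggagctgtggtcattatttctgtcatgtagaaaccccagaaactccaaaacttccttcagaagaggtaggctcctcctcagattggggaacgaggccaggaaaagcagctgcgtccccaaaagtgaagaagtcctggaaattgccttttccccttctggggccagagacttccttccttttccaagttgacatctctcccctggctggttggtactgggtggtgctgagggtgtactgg
C3 (chr17:57228137-57228386, minus strand): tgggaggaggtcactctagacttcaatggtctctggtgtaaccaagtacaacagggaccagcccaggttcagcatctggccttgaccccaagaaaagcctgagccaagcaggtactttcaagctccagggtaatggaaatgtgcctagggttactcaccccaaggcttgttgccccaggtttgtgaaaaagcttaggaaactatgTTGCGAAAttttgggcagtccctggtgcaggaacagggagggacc
Cfp (chrX:20931556-20931805, minus strand): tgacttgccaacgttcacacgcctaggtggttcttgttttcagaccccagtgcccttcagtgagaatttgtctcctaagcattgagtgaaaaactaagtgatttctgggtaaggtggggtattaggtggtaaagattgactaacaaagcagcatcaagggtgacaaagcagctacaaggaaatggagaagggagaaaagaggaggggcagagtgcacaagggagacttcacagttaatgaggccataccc

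The C3ar1 window holds an AP-1 match, TGACTCA, from 22 to 16 bases before the start, and a TATAAA far upstream, from 235 to 230 bases before it. The C3 window holds a C/EBP match, TTGCGAAA, from 45 to 38 bases before the start. The C5ar1 and Cfp windows hold none of these letters, which says nothing of sequence outside them. Among 32851 windows of the same length, the AP-1 letters occur in 6.75%, the C/EBP letters in 9.56%, TATAAA in 12.4%, the STAT letters in 7.02% and the interferon letters in 2.98%. Of the 9 members, 6 have an entry among these promoters. Of the other two, C1qb and C1qc, each holds 1 match to GAGGAA, which 23.3% of all windows contain, and C1qc also holds 1 match to the NF-κB motif, which 3.90% contain.

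Cfp (chromosome X, 20925454 to 20931555, minus strand), which encodes properdin, held 1113 adjusted reads or more in every library, as no other member did. There were 1113, 1213 and 1462 adjusted reads with RANKL alone, 2061, 1668 and 1769.6 with heat-killed MJ2 and 2186, 2049.8 and 2116 with surface proteins. Every treated library lay above the 3 of the negative control, whereas the 2 treated groups overlapped. Such a separation from RANKL alone was found for 24.7% of the genes tested with surface proteins and 15.4% with heat-killed MJ2. With surface proteins the log2 fold change of Cfp was 0.75 (standard error 0.15, adjusted p = 0.015), which passes the limit on p but not the fold change of 2. With heat-killed MJ2 it was 0.54 (standard error 0.17, adjusted p = 0.12), and between the treated groups 0.21 (95% confidence interval -0.12 to 0.55, adjusted p = 0.32). In each comparison its log2 fold change was the smallest in size among the members tested.

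C3 (chromosome 17, 57203970 to 57228136, minus strand), the central component of the cascade, was present at few reads. It held 3.68, 7.62 and 0 adjusted reads with RANKL alone, 13.3, 13.5 and 6.85 with heat-killed MJ2, and 24.5, 25.03 and 30.5 with surface proteins. The surface protein libraries lay above all others, while the other 2 groups overlapped, since replicate 3 with heat-killed MJ2 lay below replicate 2 with RANKL alone. Among all genes tested, surface proteins lay fully above RANKL alone in 24.7% and fully above heat-killed MJ2 in 22.2%. On the log2 scale C3 stood 3.01 higher with surface proteins than with RANKL alone (standard error 0.75, adjusted p = 0.029) and 1.23 higher than with heat-killed MJ2 (standard error 0.27, adjusted p = 0.031). In the first of these comparisons C3 passed the filter through the surface protein libraries alone, so that its call there is a description and no support for a difference, and it could not be tested with one of them left out. It was 2.12 without replicate 3 of the negative control, which held no read, and it lost the call without replicate 1 of the negative control (adjusted p = 0.057). Against heat-killed MJ2 the call was lost without any one of the 3 surface protein libraries, or without replicate 1 or 3 of heat-killed MJ2 (adjusted p between 0.051 and 0.084). Counting error alone gives a ratio of 6.83 between the summed C3 reads of surface protein-treated and control cells, per total, with a 95% exact interval of 3.72 to 14.6. For heat-killed MJ2 against RANKL alone C3 did not pass the filter, and the same ratio was 3.05 with an interval of 1.56 to 6.90.

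**Figure D2:**
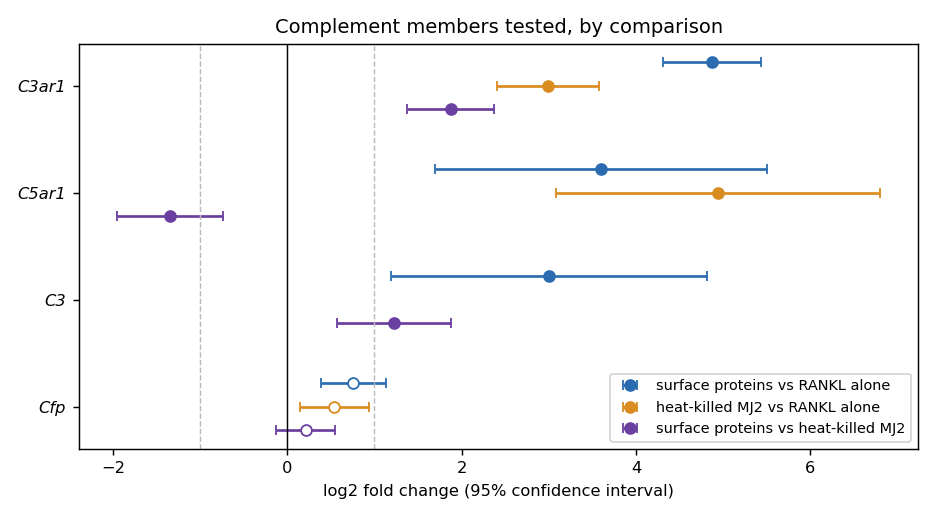
The x axis is the log2 fold change from limma with its 95% confidence interval for the 4 members tested, with filled points for called differences, open points for the rest and dashed lines at a fold change of 2. C3ar1 is above zero in all 3 comparisons, C5ar1 turns to -1.34 between the treated groups, and all 3 points of Cfp are open.

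**Figure D3:**
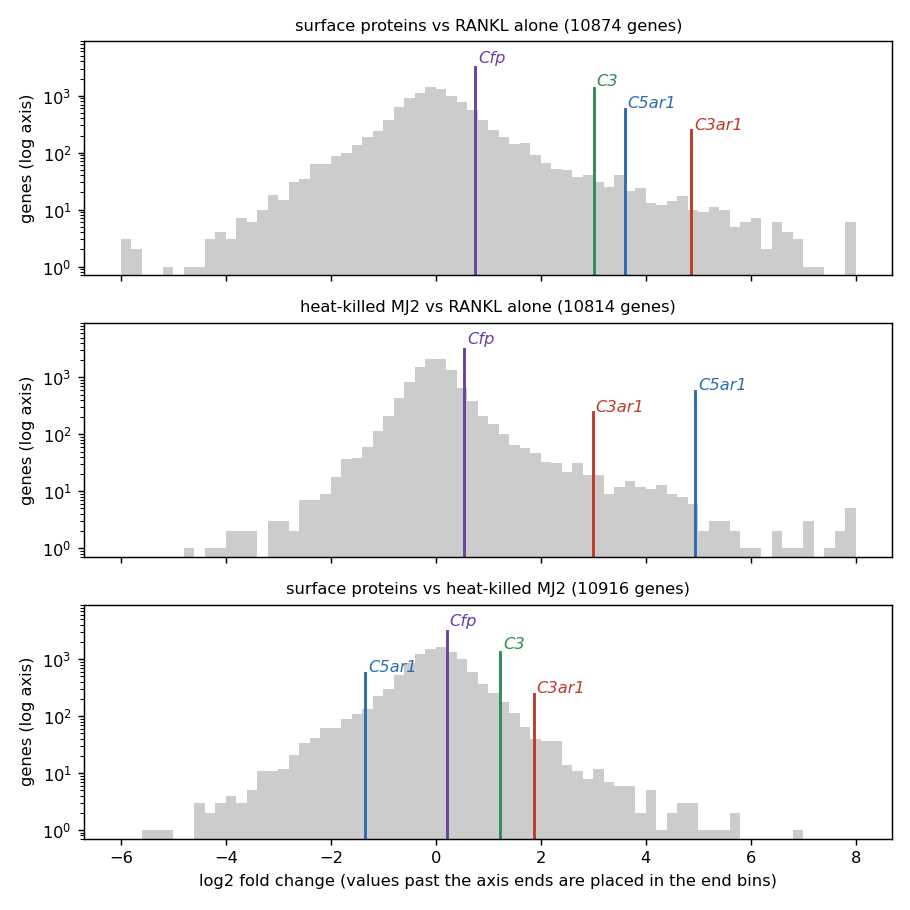
Grey bars count all genes tested by log2 fold change on a log axis, 1 panel for each comparison, and coloured lines mark the members. C3ar1 at 4.87 lies furthest out of the members with surface proteins, C5ar1 at 4.94 does so with heat-killed MJ2, and between the treated groups the 2 receptors lie on opposite sides of zero.

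The 3 chains of C1q, the recognition molecule of the classical pathway, are encoded side by side on the minus strand of chromosome 4, from 136880129 (C1qb) through C1qc to 136898803 (C1qa). All were close to the floor in every library but 1, in which C1qb reached 19.7 adjusted reads, and reads were found mainly with surface proteins. C1qb held 19.7, 3.84 and 4.37 in surface protein-treated cells, at most 1.13 with RANKL alone and at most 1.04 with heat-killed MJ2. C1qa held 1.96, 3.89 and 3.22 with surface proteins, under 0.1 in each library with RANKL alone, and 1.97 in 1 library with heat-killed MJ2. C1qc held 1.96, 1.93 and 4.23 with surface proteins and under 0.1 in each of the other 6 libraries. For each chain the surface protein libraries lay above all of the negative control, a pattern given above for 24.7% of the genes tested, although the C1q genes were not among those. Against heat-killed MJ2 the same separation held for C1qb and C1qc but not for C1qa.

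Summed over the 3 chains there were 0, 1.16 and 0 adjusted reads in the libraries with RANKL alone, 1.05, 0 and 2.94 with heat-killed MJ2, and 23.6, 9.66 and 11.8 with surface proteins. The group sums were 1.16, 3.98 and 45.1, for which the 95% exact Poisson intervals are 0.025 to 5.57, 1.09 to 10.2 and 32.8 to 60.2. The share of reads from the C1q genes was 37.5 times higher with surface proteins than with RANKL alone, with a counting interval of 7.40 to 1752, and 10.7 times higher than with heat-killed MJ2, with an interval of 3.88 to 40.7. Between heat-killed MJ2 and RANKL alone the ratio was 3.504 with an interval of 0.40 to 201, so that no difference was detectable at this depth. Replicate 1 carries much of the surface protein sum, which is 21.5 without it. These intervals treat the reads of a group as 1 pool and leave out the spread between libraries.

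Cfb, the alternative pathway protease (chromosome 17, 34856374 to 34862518, minus strand), showed no separation by group. It held 10.3, 0.064 and 6.92 adjusted reads with RANKL alone, 10.2, 5.79 and 4.89 with heat-killed MJ2, and 26.5, 5.74 and 2.29 with surface proteins, and all groups overlapped. The spread within the surface protein group alone thus covered that of the other 2 groups apart from 1 control library. The ratio of summed reads with surface proteins to RANKL alone was 1.92 (counting interval 1.08 to 3.78) and is set mainly by replicate 1. An annotated gene, Gm20547, overlaps both Cfb and the neighbouring C2 on the same strand, though not the 3′ end of Cfb, and how reads shared between such genes were counted is not given in the sources used here. Serping1, the inhibitor of the C1 proteases (chromosome 2, 84765387 to 84775444, minus strand), held 4.97 adjusted reads with RANKL alone in replicate 3, 2.14 in replicate 3 with surface proteins and under 0.1 in the other 7 libraries. It was therefore at or under the floor in 8 of 9 libraries, and no difference could be read.

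A further 38 genes of the system were counted by role. Of these, 17 held no more than 3 adjusted reads in any of the 9 libraries, among them C2, the convertase partner of C4, the membrane regulator Cd55, and Hc, the gene of C5. Of the 8 genes of the terminal components and factor D, 6 were at this level, as were 6 of 11 of the classical and lectin pathways, 2 of 4 fluid-phase regulators, 2 of 6 membrane regulators and 1 of 9 receptors. Among these, C2 has its annotated 3′ end covered by Gm20547 on the same strand. The reads of this pair may not be separable, so that the level of C2 does not show that it was absent. The transcript of C5, whose fragment is the ligand of C5ar1, was thus at or under the floor in every library, with at most 2.03 adjusted reads of Hc. With surface proteins 13 genes of the list could be tested, of which 5 rose and 1 fell, with a median log2 fold change of 0.91. With heat-killed MJ2 12 could be tested, of which 3 rose and none fell, with a median of -0.00067. Between the treated groups 14 could be tested, of which 2 were higher and 2 lower with surface proteins, with a median of 0.18. Masp2 and Fcna were among the genes tested in every comparison. Their annotated 3′ ends are covered on the opposite strand by Tardbp and Fcnaos, respectively, so the reads of each pair may not be separable. Over all genes tested, the shares called were 10.2% higher and 7.32% lower with surface proteins, 3.37% and 0.897% with heat-killed MJ2, and 5.08% and 4.97% between the treated groups, and the medians are given above. Against RANKL alone, C1ra, Clu, Cd93 and Cr2 passed the filter, where tested, only or mainly through the treated group in which they are high. The same held for Clu and Cr2 between the treated groups. The calls of these genes there are descriptions and no support for a difference. The counts and medians of the list include these genes and are no support for a change of the list either. The values called below had an adjusted p of at most 0.035.

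Among proteases and regulators, C1ra, a protease of the C1 complex, held 7.42, 9.79 and 5.92 adjusted reads with RANKL alone, all under the filter, 30.3, 22.1 and 13.3 with surface proteins, and 22.5, 54.3 and 44.2 with heat-killed MJ2. Clu, the fluid-phase inhibitor clusterin, held at most 2.24 adjusted reads with RANKL alone, under the filter, and 20.4, 17.5 and 24.6 with heat-killed MJ2. It held 5.85, 12.5 and 6.65 with surface proteins, also above every control library but short of the filter in that comparison and below every heat-killed MJ2 library. Surface proteins lay fully above RANKL alone in 24.7% of the genes tested there, without Clu, and fully below heat-killed MJ2 in 20.1%. The membrane regulator Cd59a, which blocks the terminal complex, rose with surface proteins (log2 fold change 1.10, standard error 0.27). Cr1l, the rodent regulator of C3 convertases, differed between the treated groups by 1.05 on the log2 scale (standard error 0.13, higher with surface proteins), and against RANKL alone its log2 fold change was 0.91 with surface proteins (adjusted p = 0.0067, under the fold limit) and -0.14 with heat-killed MJ2.

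Among receptors, Itgam, the alpha chain of complement receptor 3 for fragments of C3, and one of the macrophage markers above, followed the same order as C3ar1. It held 239, 259 and 212 adjusted reads with RANKL alone, 1082, 1347 and 998 with heat-killed MJ2 and 1743, 2152 and 1861 with surface proteins. The log2 fold change of Itgam was 3.01 (standard error 0.16) with surface proteins and 2.26 (standard error 0.17) with heat-killed MJ2, and between them 0.75, under the fold limit. Gm49368 overlaps the annotated 3′ end of Itgam, so the reads of the pair may not be separable. Itgax, the alpha chain of complement receptor 4, fell with surface proteins from 54.5, 33.4 and 97.0 to 17.6, 12.4 and 10.02 adjusted reads (log2 fold change -2.03, standard error 0.41). With heat-killed MJ2 Itgax held 23.6, 26.1 and 32.4, at a log2 fold change of -1.02 that was not called (adjusted p = 0.18). Between the treated groups Itgax was lower with surface proteins (-1.004, standard error 0.24). The shared beta chain Itgb2, named after its values were seen, had log2 fold changes of 0.07 (95% confidence interval -0.49 to 0.63) and 0.01 (-0.46 to 0.48) with surface proteins and heat-killed MJ2. Cd93, a myeloid surface protein once described as a C1q receptor, held 12.7, 13.4 and 21.8 adjusted reads with surface proteins against at most 2.25 with RANKL alone, and it held 4.12, 35.9 and 19.6 with heat-killed MJ2. Calr, a chaperone that also binds C1q, rose with surface proteins (log2 fold change 1.04, standard error 0.12). Cr2, complement receptor 2, held 27.5, 21.2 and 18.5 adjusted reads with surface proteins, at most 5.78 with heat-killed MJ2, under the filter, and 0, 3.32 and 15.8 with RANKL alone, and C5ar2, the other receptor of C5a, held at most 7.09 adjusted reads.

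**Figure D4:**
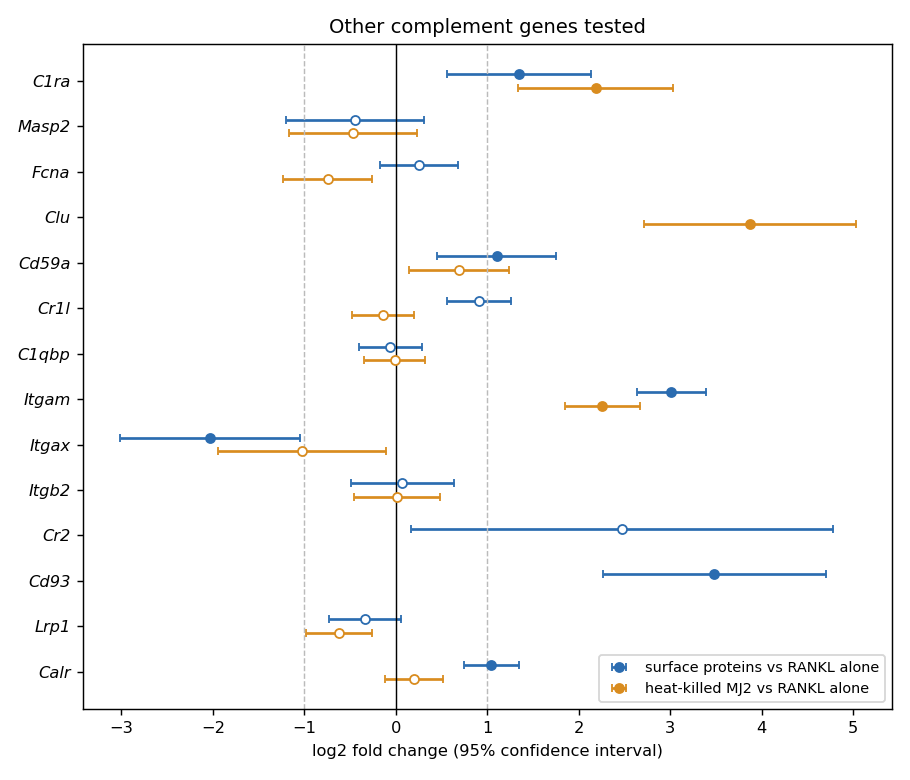
The x axis is the log2 fold change against RANKL alone with its 95% confidence interval for the other complement genes tested, in blue with surface proteins and in orange with heat-killed MJ2, and filled points are called differences. Itgam lies near 3.01 and 2.26, Itgax at -2.03 with surface proteins, and the intervals of Itgb2 span zero in both treatments.

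The genes whose log2 values ran most like those of a member over the 9 libraries were sought among 11192 others, as a description, since the 9 points fall into 3 groups and share their libraries. C3ar1 was most like Msn, Ms4a6d and Lcn2 (Pearson's r of 0.999, 0.995 and 0.994). C5ar1 was most like Igf1, Stab1 and Dhx58, all at r of 0.98. C3 was most like Saa3 (r = 0.976), L1cam and Cp, the gene of ceruloplasmin. Saa3 is an acute-phase serum amyloid A gene. Cfp was most like Hdgfrp3, Sh3tc1 and Eme1 (r from 0.964 to 0.980), and Cfb was most like Ice1, Fkbp7 and Map4k2 (r of 0.956, 0.900 and 0.894). With RANKL alone, Cfb and Fkbp7 held 0.064 and 0.068 adjusted reads in replicate 2, and C3, Saa3 and L1cam held 0 in replicate 3. Single libraries near the floor therefore weigh in the r values of C3 and Cfb.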

How the data were processed

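RNA of 9 RAW264.7 libraries, 3 in each of 3 groups, was read from its 3′ end as 75 base single-end reads (QuantSeq kit). The authors deposited a log2 value per gene row, on 23282 rows in each library. Quantile normalization is named in the study's methods, yet the sorted columns differ by up to 1.60, so the exact scaling is not known. Bowtie2, bedtools and the mm10 build are named in the submitters' processing notes. The strand and multi-read settings of the counting are not given in the sources used here. Scaling can shift all fold changes together, and 3 libraries carry values just above 0 where the others list 0.

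Adjusted reads were computed as 2 raised to the value, minus 1. Values from 0.5 to 3.5 adjusted reads lay within 0.25 of a whole number of reads in 100% of cases in every library. The lowest total was 5930926 and the highest 6503682. Replicates differed more than sampling allows (chi-square per degree of freedom 6.90 to 18.5 over genes with at least 100 adjusted reads per pair), and each counted as 1 sample. Differences were tested with limma 3.58.1 (R 4.3.3, lmFit and eBayes on the deposited values, Benjamini-Hochberg adjustment over all genes tested) on the 6 libraries compared. On simulated data for surface proteins against RANKL alone, 171 of 200 changed genes and 8 of 10674 unchanged genes were called. Intervals for ratios of reads are exact binomial ones. Positions and overlaps are from GENCODE M21, promoter sequences from RefSeq on GRCm38.p6. Python 3.11.15, numpy 2.4.6, pandas 2.3.3, scipy 1.17.1 and matplotlib 3.10.9 were used.

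The members and lists were chosen with earlier results of these data known. Every member is named. Of the other complement list, genes called in any comparison are named, as are C2, Hc, Cd55, Cr1l, C5ar2, Itgam and Itgax, and the 3 genes most correlated with each member. One further gene of that list is not reported here, and the counts are over the 38 others. Markers of dendritic cells, fibroblasts and epithelium summed to at most 48.0, 41.7 and 7.34 adjusted reads in a library. Alternatives covered scaling, filters, pseudocounts, the libraries fitted, a replicate block, the prior, the threshold and leaving out each library. Replicate numbers did not count as pairs in the main fit: deviations of same-numbered libraries correlated at 0.018 to 0.11, over 0.1 in 1 of 9 pairs. All 9 still exceeded the correlations with differently numbered libraries, so the calls with a replicate block are given below.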

Additional observations from a re-analysis of the deposited data

How the results depend on the processing

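Over all alternatives, 173 of 202 values of the tested members kept their direction and their side of the threshold, 28 lost the call, 1 gained it and none reversed. Values of Cfp that stayed uncalled count as kept, and all 28 losses fell on C3 and C5ar1. C3 lost 3 of 15 values with surface proteins and 10 of 18 between the treated groups. C5ar1 lost 4 of 18 with surface proteins, 6 of 18 with heat-killed MJ2 and 5 of 19 between the treated groups. C3ar1 kept all 3 calls in every setting. Without a filter on low values, surface proteins against RANKL alone gave C3 3.01 (adjusted p = 0.071) and C5ar1 3.60 (adjusted p = 0.051), and heat-killed MJ2 against RANKL alone gave C5ar1 4.94 (adjusted p = 0.064) and 267 genes called in place of 461. With a pseudocount of 0.1 C3 was at 4.22 with surface proteins (adjusted p = 0.098). Between the treated groups the C3 value of 1.23 lost its call with a mean of at least 1 adjusted read, with no filter, over all 9 libraries in 1 fit, with the replicate block and with limma-trend (adjusted p from 0.055 to 0.24), and the C5ar1 value of -1.34 lost it over all 9 libraries (adjusted p = 0.20). Dropping the fold limit gave 3163 genes in place of 1901 with surface proteins, adding Cfp at 0.75, and 1949 in place of 1098 between the treated groups. An unadjusted p with the fold limit gave 799 genes with heat-killed MJ2. The replicate block gave 289 genes there and C5ar1 at 4.94 without a call (adjusted p = 0.051). It changed no other member's call besides C3, although all 9 same-numbered pairs of libraries were more alike than differently numbered ones.

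With each library left out in turn, the number of genes called ran from 1357 to 1822 with surface proteins, from 81 (without heat-killed MJ2 replicate 1) to 347 with heat-killed MJ2, and from 362 (without heat-killed MJ2 replicate 1) to 1176 between the treated groups. It was also more than 1.5 times lower than with all libraries without heat-killed MJ2 replicate 2 (155) or 3 (116) or RANKL alone replicate 3 (300), and, between the treated groups, without heat-killed MJ2 replicate 3 (415) or surface proteins replicate 2 (591) or 3 (672). The log2 fold change of C3 ran from 2.12 to 3.67 with surface proteins and from 0.93 to 1.38 between the treated groups, and that of C5ar1 from 2.69 to 4.29, from 4.04 to 5.63 with heat-killed MJ2 and from -1.58 to -1.16 between the treated groups. A group left with 2 libraries has fewer degrees of freedom and a filter that is harder to pass. Where 10 adjusted reads were required in every library, C3 was not tested in any comparison and C5ar1 not against RANKL alone. Members under 10 adjusted reads are limited by depth.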

Other observations

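Under more lenient filters the low members also received a test. With a mean of at least 1 adjusted read over the 6 libraries, C1qa (log2 fold change 1.97, adjusted p = 0.0052), C1qb (2.66, adjusted p = 0.041) and C1qc (1.83, adjusted p = 0.0096) were called higher with surface proteins than with RANKL alone, and without a filter C1qb was not (adjusted p = 0.059). Each passed this filter only through the surface protein libraries, and C1qa and C1qc were set against a group without a whole read, so that these calls are no support for a difference and the fitted values depend on the pseudocount. Against heat-killed MJ2 under the same filter, C1qc was called (1.83, adjusted p = 0.024), whereas C1qa (1.45, adjusted p = 0.12) and C1qb (2.36, adjusted p = 0.078) were not. C1qc again passed only through the surface protein libraries and stood against a group without a whole read, so that this call is no support either. This reading of the planned filters was added after the data had been seen. Against RANKL alone, Cfb (0.89, adjusted p = 0.63) and Serping1 (-0.31, adjusted p = 0.83) were not called.

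In each of the 3 groups the highest value of Cfb was that of replicate 1, at 10.3, 10.2 and 26.5 adjusted reads, a pattern noticed after the values were seen and not tested.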
